A study of Mus musculus with 16 samples.

Results

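Type A intercalated cells were the cells studied, taken from single-cell libraries of mouse kidney. They were chosen by their transcripts: a cell barcode was eligible if it held between 200 and 7000 genes and no more than 50% of its UMIs (unique molecular identifiers, 1 per counted RNA molecule) were mitochondrial, and counted as a type A cell if it held at least 3 UMIs of Slc4a1 plus Aqp6, at least 1 of Slc4a1, more of these than of Slc26a4, and 0 UMIs of Cubn, Pecam1, Pdgfrb and Ptprc. The rule found 4959 type A cells among 94436 barcodes of sufficient quality and 116439 barcodes in all, with 65 to 615 cells per library. The study sampled the kidneys of BTBR ob/ob mice, which lack leptin and are called DN (diabetic nephropathy) here, and of BTBR +/+ control mice. It had 16 libraries in 8 groups of 2, formed by genotype, sex and an age of 6 or 12 weeks, with 1 library per mouse. Mice of both genotypes carried the same podocyte reporter, a tdTomato/EGFP switch at the ROSA26 locus and a Cre driven by a podocyte promoter, so intercalated cells were not the cells the Cre marks. The papilla was cut away and proximal tubule was depleted on a Percoll gradient before digestion with a cold-active protease, so cells of the papilla are largely missing. The labels call the material glomeruli cells, while the cells described here carry transcripts of the collecting duct.

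Libraries fell into 2 sets by the cell barcodes they drew on. A set of 12 shared one barcode list, and replicate 1 of all 4 female groups used another. The median UMI count of a type A cell was 15078 to 29243 in the first set and 4578 to 5978.5 in the second, and the summed UMIs of type A cells ran from 321701 to 12553694 per library. Every test of genes below has the barcode list as a term, and all male libraries lie in the first set. Within type A cells, 1 barcode was shared between libraries. Lep had 0 to 7 UMIs per library over all barcodes, too few to check the ob/ob label.

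Type A intercalated cells secrete acid into the urine. A vacuolar proton pump, the V-ATPase, moves protons across the membrane facing the lumen, carbonic anhydrase inside the cell supplies them, and the chloride/bicarbonate exchanger AE1, encoded by Slc4a1, returns bicarbonate to the blood. Type B cells carry the reverse arrangement with pendrin (Slc26a4) facing the lumen, and principal cells, their neighbours, take up sodium and water through Aqp2 and the epithelial sodium channel. The forkhead factor Foxi1 is required for intercalated cells to form and drives proton pump genes. Intercalated cells are also known for antimicrobial proteins.

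The label held against markers that the rule did not use, although these come from the same cells and are a description. Kit, a receptor tyrosine kinase, had a UMI in 89.9% of the cells, and Dmrt2, a transcription factor of type A cells, in 83.3%. Both were present in 78.8%, and 277 cells (5.59%) had neither. Among 5318 type B cells, found by the mirrored rule on Slc26a4 and Slc4a9, Kit was seen in 21.4% and Dmrt2 in 2.56%. Among 11438 Aqp2-expressing cells without Slc4a1, Aqp6 or Slc26a4 the values were 1.53% and 3.68%. Foxi1 was detected in 86.9% of type A cells. Aqp2 had a UMI in 55.8% of type A cells, in 48.6% of type B cells and in 36.5% of 14973 cells with Cubn or Lrp2 transcripts of the proximal tubule, a type that should lack it. The proximal tubule transcript Kap had a UMI in 60.6% of type A cells. Transcripts of other cells were therefore present in these barcodes at a level that has to be set beside each result, and no doublet caller was run. A stricter set, with 0 UMIs of Aqp2 and of Slc26a4, was followed beside the full set. It held 2031 type A cells, 53 to 246 per library and 41.0% of all. This set also differed in depth, with a median of 12641 UMIs against 24216.5 in type A cells with Aqp2 UMIs. It kept 53 of 65 cells in control female 6 weeks replicate 1 and 57 of 285 in DN male 6 weeks replicate 2. Kap still had a UMI in 52.9% of its cells, so the set was not free of proximal tubule RNA.

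At the edge of the rule, 197 cells had exactly 3 UMIs of Slc4a1 plus Aqp6. Their median depth was 4286 UMIs, and 43.1% held Kit and 32.0% held Dmrt2. Just outside, 328 barcodes with 2 such UMIs had a median of 2181.5 UMIs, Kit in 20.7% and Dmrt2 in 13.7%. Most type A cells lay far inside, with a median of 32 UMIs of Slc4a1 plus Aqp6. Another 1425 barcodes met the Slc4a1 and Aqp6 conditions but held a UMI of Cubn, Pecam1, Pdgfrb or Ptprc, and Kit was found in 94.8% of these. The rule thus left out many barcodes with the same markers.

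Levels of transcripts in type A cells are given as CPM, the count of a transcript scaled to 1e+06 counts, over the summed UMIs of the cells of a library, with the mean and SD over 16 libraries. Kit (ENSMUSG00000005672, chr5:75574916-75656722 in GRCm38) stood at 322 ± 84.0 CPM in type A cells, 34.8 ± 11.5 in type B cells and 1.88 ± 1.45 in Aqp2-expressing cells. Dmrt2 (ENSMUSG00000048138, chr19:25672411-25678991) stood at 191 ± 22.3 CPM against 3.06 ± 3.72 in type B cells. Adgrf5, an adhesion receptor coupled to G proteins, was the highest of the receptors followed, at 821 ± 157 CPM against 29.1 ± 9.96 in type B cells. P2ry14, a receptor for UDP-glucose, stood at 79.8 ± 22.6 CPM against 2.47 ± 1.02, and Slc26a7, a chloride/bicarbonate exchanger of the blood-facing membrane, at 80.5 ± 49.5 CPM against 0.605 ± 0.750. Each of these was higher in type A than in type B cells in 16 of 16 libraries, and so was the ammonia transporter gene Rhbg, at 644 ± 172 against 386 ± 98.7 CPM. These comparisons describe the cells and were not tested.

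The proton pump was shared between the intercalated types. Atp6v1b1, the B1 subunit, stood at 517 ± 94.8 CPM in type A cells and 558 ± 84.5 in type B cells, with 2 of 16 libraries higher in type A. The G3 subunit gene Atp6v1g3 was at 4727 ± 1459 CPM in type A cells and 7107 ± 2006 in type B cells, and the d2 subunit gene Atp6v0d2 at 623 ± 78.5 and 770.5 ± 86.4. Neither was higher in type A cells in any library. Foxi1 was at 291 ± 58.3 and 318 ± 79.5 CPM, with 3 of 16 libraries higher in type A cells. The carbonic anhydrase gene Car12 (336 ± 91.9 against 833 ± 189 CPM), Hepacam2 (175 ± 41.4 against 396 ± 91.7), the Notch ligand gene Jag1 (32.9 ± 8.14 against 145 ± 35.7) and the vasopressin receptor gene Avpr1a (93.6 ± 13.9 against 169 ± 29.0) were lower in type A than in type B cells in every library.

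**Figure D1:**
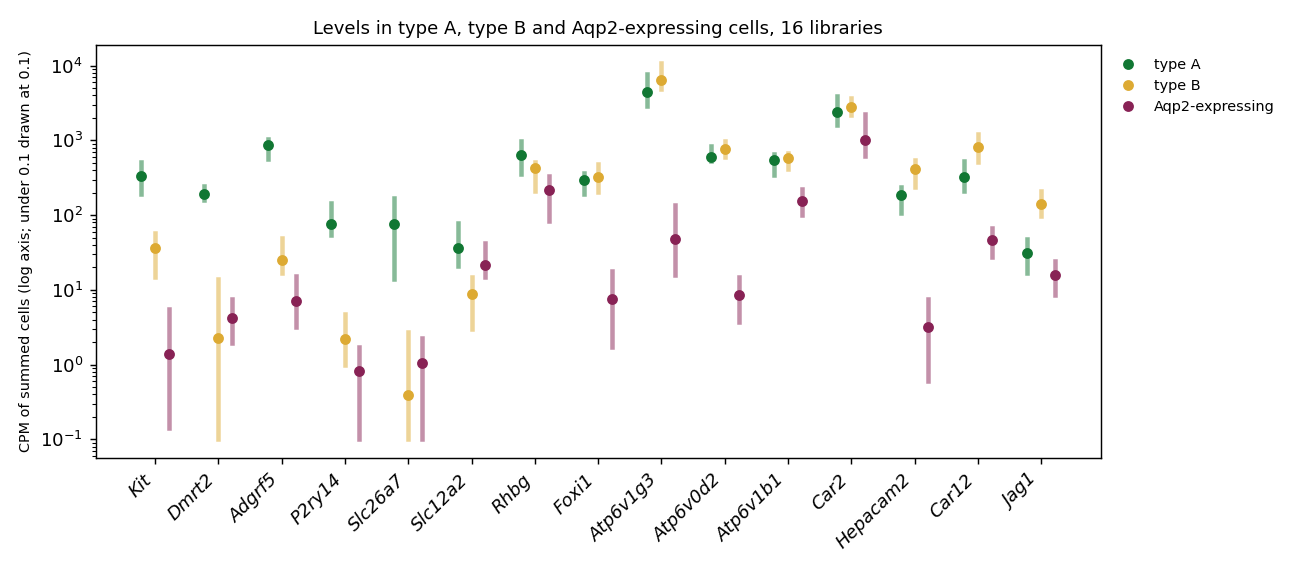
Levels of 15 transcripts in type A, type B and Aqp2-expressing cells. The vertical axis is CPM of summed cells on a log scale, points are the median of the 16 libraries and bars run from the lowest to the highest library; Kit, Dmrt2, Adgrf5, P2ry14 and Slc26a7 stand above both other cell groups, while the proton pump genes lie close to type B cells.

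The promoter of Atp6v1b1 is shown because this subunit gene is the one among those looked up that holds a core motif of forkhead factors such as Foxi1. Promoters of 8 genes that mark these cells were looked up in RefSeq (GRCm38.p6) and 6 had an entry, each read from 250 bases before to 50 bases after the start site on both strands. A forkhead core (TGTTTAC or TGTTTAT) was present in 1 of the 6 and in 7.91% of all 27025 promoters. In the 150 bases before the start of Atp6v1b1, at chr6:83742867-83743016 on the plus strand, the match in capitals begins 98 bases before the start.
Atp6v1b1: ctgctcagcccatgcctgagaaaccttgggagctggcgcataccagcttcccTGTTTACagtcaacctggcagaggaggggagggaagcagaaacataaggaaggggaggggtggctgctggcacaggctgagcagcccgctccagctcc

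The abundance of type A cells was compared between DN and control kidneys first. Of all barcodes of sufficient quality, type A cells made up 2.22% to 7.99% in the 8 control libraries (5.19% ± 1.97, SD, n = 8) and 2.41% to 6.71% in the 8 DN libraries (5.05% ± 1.39, n = 8). The ranges overlapped almost fully. The difference was -0.140 percentage points (exact two-sided permutation test within sex and age, p = 0.869, adjusted over 2 measures 0.869), and 3 of 8 pairs of libraries with the same sex, age and replicate number had its sign. Among type A plus type B cells, type A cells made up 36.3% to 53.4% in control (45.3% ± 5.58, n = 8) and 44.2% to 60.2% in DN (50.7% ± 5.35, n = 8). This difference of 5.39 points did not pass the test (exact permutation p = 0.0818, adjusted 0.164; with the pairs as blocks 0.0625). It was 2.96 points within the first barcode list and 12.7 points within the second. With cells thinned to 1000 UMIs each the sign turned, to -2.78 points (exact permutation p = 0.576). Shares of cells also depend on how the gradient and digestion passed each cell type, and this was not tested.

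Mitochondrial transcripts took a larger part of the UMIs of DN type A cells, a comparison added after the data had been seen. The median per library was 22.2% to 25.1% in control (23.4% ± 1.15, n = 8) and 22.9% to 32.9% in DN (27.7% ± 3.49, n = 8). DN was higher in 8 of 8 pairs, by 4.25 points on average (exact permutation p = 0.00309), and by 3.91 points in the 12 libraries of the first barcode list (exact permutation p = 0.0278). Type B cells of the same libraries had 24.8% ± 0.922 in control and 25.02% ± 2.24 in DN (exact permutation p = 0.836). Taken as type A minus type B within a library, the value was -4.15 to 1.12 points in control and 1.44 to 5.17 points in DN. The genotypes did not overlap on this measure, and p was 0.00154, the smallest the exact permutation test can give.

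This difference bears on any cut on mitochondrial content. With at most 20% mitochondrial UMIs, 1342 type A cells were left, 2 to 203 per library, and their share of barcodes was lower in DN by 1.42 points (exact permutation p = 0.0231). Under the same cut the part of type A among intercalated cells turned to -12.5 points (exact permutation p = 0.0139). The median depth of type A cells was also higher in DN in 7 of 8 pairs (exact sign-flip test over pairs, p = 0.0156), while the exact permutation test within sex and age gave p = 0.423.

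**Figure D2:**
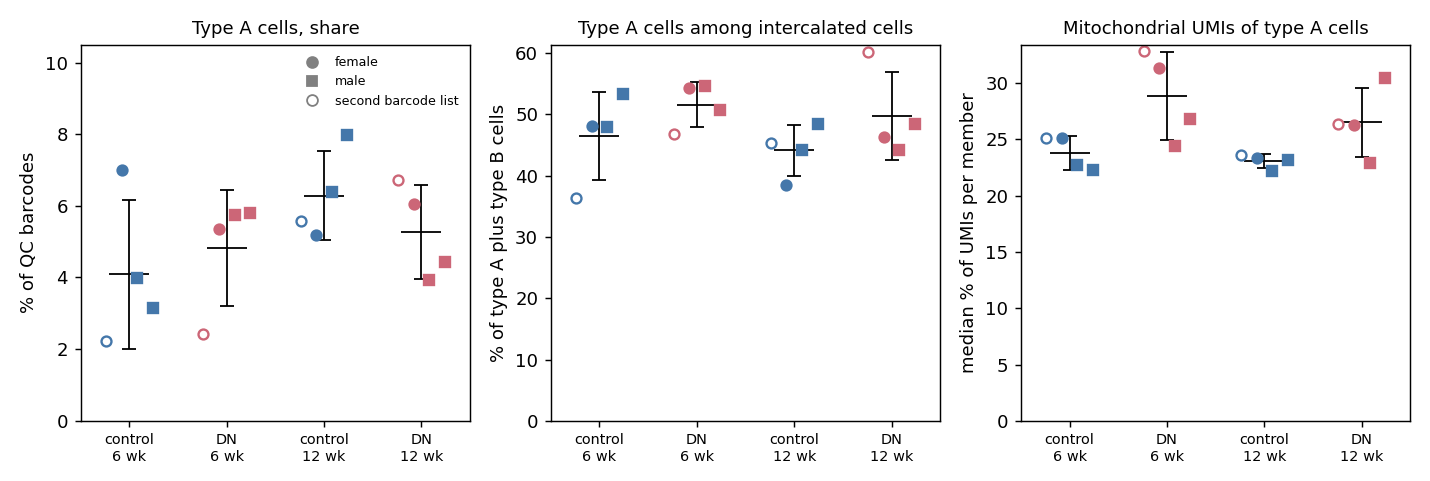
Type A cells in each library. The panels give their share of barcodes of sufficient quality, their part of type A plus type B cells, and the median percentage of mitochondrial UMIs per cell; each point is 1 library, circles are females, squares males, open symbols the second barcode list, and lines give the mean and SD of 4 libraries. Shares overlap between the genotypes. Mitochondrial percentages overlap too, with DN libraries from 22.9% to 32.9% and a highest control value of 25.1%.

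Gene expression in type A cells differed between DN and control kidneys in a limited set of genes. Over both ages, 12405 genes were tested on the summed UMIs of 16 libraries. Of these, 152 (1.23%) were higher and 175 (1.41%) lower in DN at an adjusted p under 0.05 (edgeR's quasi-likelihood test with Benjamini-Hochberg adjustment). Adding the replicate pairs as a block raised the number of calls from 327 to 992, and all 327 stayed called in their direction. The higher and the lower genes behaved differently when followed into the type A cells without Aqp2 and Slc26a4 UMIs. Of the 152 higher genes, 7 (4.61%) had a level there under 0.5 times that in all type A cells, against 4.20% of all genes tested. Of the 175 lower genes, 103 (58.9%) did. The median ratio of levels was 1.09 for the higher genes, 0.454 for the lower genes and 0.962 for all genes. In the stricter cells 10095 genes could be tested and 93 (0.921%) were called, and 135 of 136 higher and 107 of 111 lower genes that could be tested kept their sign, while 52 and 23 of them were still called. The stricter cells are a subset of the same cells, with a lower median depth (12641 against 18571 UMIs in all type A cells). P-values measure the spread between libraries, 1 per mouse.

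Genes higher in DN type A cells were led by Gpx3, the secreted glutathione peroxidase (ENSMUSG00000018339, chr11:54902453-54910377). Its level was 207 CPM in the lowest, 357 at the median and 802 in the highest of the 8 control libraries, and 486, 749 and 2233 CPM in DN. The highest values of each genotype came from the second barcode list, and the groups overlapped, yet DN was higher in 8 of 8 pairs. The log2 fold change was 1.31 ± 0.12 (SE, adjusted p = 1.1e-05), and 1.24 (adjusted p = 4.14e-06) in the cells without Aqp2 and Slc26a4. Gpx3 is abundant in proximal tubule, at 11960 CPM in control and 13082 in DN cells with Cubn or Lrp2. Of 10 proximal tubule markers, 0 were called higher and 3 lower in type A cells. Their summed level in control was 640 ± 679 CPM (SD) in the stricter cells and 479 ± 372 in all type A cells. In DN it was 218 ± 131 and 203 ± 112 CPM. The stricter cells thus did not hold less of these markers, and the part of proximal tubule RNA in the Gpx3 result was not tested.

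Spp1, which encodes the secreted phosphoprotein osteopontin (ENSMUSG00000029304, chr5:104435118-104441050), had 1196, 1384 and 1750.4 CPM as the lowest, median and highest control value and 2082, 2689 and 3616 CPM in DN. No DN library fell into the control range. The log2 fold change was 1.00 ± 0.12 (adjusted p = 0.000183), and 0.98 (adjusted p = 6.49e-05) in the stricter cells. With every cell thinned to 2000 UMIs, Spp1 was detected in 68.9% ± 5.91 of control and 83.0% ± 7.73 of DN type A cells, and in 85.8% ± 2.51 and 85.5% ± 3.90 of type B cells. The level in type B cells was 4121 ± 844 CPM in control and 5544 ± 858 CPM in DN, above that in type A cells of either group.

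Ptger3 encodes EP3, a receptor for prostaglandin E2 (ENSMUSG00000040016, chr3:157566892-157645888). Control libraries ran from 30.3 CPM through a median of 38.0 to 47.0, and DN libraries from 52.1 through 64.7 to 68.2. The groups did not overlap and differed by 0.81 ± 0.09 on the log2 scale (adjusted p = 9.39e-05). In the stricter cells the change was 0.52 (adjusted p = 0.033). Its level in Aqp2-expressing cells was 3.5 CPM in control and 1.86 in DN. Type B cells held more Ptger3 than type A cells, with 85.3 ± 9.84 CPM in control and 95.3 ± 11.7 in DN, and the part of type B RNA in this result was not tested.

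Further genes rose with less abundant transcripts. Pigr, the receptor that carries polymeric immunoglobulins across epithelia, went from 6.22, 9.38 and 11.5 CPM (lowest, median and highest control library) to 11.7, 25.5 and 37.0 CPM in DN, without overlap (log2 fold change 1.27 ± 0.17, adjusted p = 0.000306). It stood at 1.85 and 2.88 CPM in type B cells. Napsa, an aspartic protease, had 41.0, 55.5 and 60.3 CPM in control and 78.7, 94.5 and 117 CPM in DN (0.97 ± 0.12, adjusted p = 0.000183). It did not overlap either, and stood at 1266 CPM in control and 1891 CPM in DN proximal tubule cells. Nrbp2, a kinase-like protein, and Fam19a1, a secreted chemokine-like protein, were also called without overlap, at log2 fold changes of 0.62 and 1.55. Over all genes tested 32 (0.258%) had no overlap between the 8 DN and the 8 control libraries, and 10 of the 152 higher and 13 of the 175 lower genes were among them. Dapl1 had the largest change of the genes named here that kept their level in the stricter cells, from 4.28 ± 2.05 to 17.6 ± 9.74 CPM (2.16 ± 0.23, adjusted p = 7.35e-05). Cyp4v3, a fatty acid hydroxylase (0.79), Tshr, the thyrotropin receptor (0.66), and Cebpd, a C/EBP transcription factor (0.93), were called as well.

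The metallothionein genes Mt1 and Mt2, neighbours on chr8, encode small metal-binding proteins. Mt1 (ENSMUSG00000031765, chr8:94179082-94180327) had 347, 436 and 783 CPM in control and 466, 574 and 1740.2 CPM in DN as lowest, median and highest values. The groups overlapped, DN was higher in 8 of 8 pairs, and the log2 fold change was 0.71 ± 0.13 (adjusted p = 0.00372). Mt2 was at 73.0 ± 44.3 and 126 ± 97.7 CPM and did not pass the test (0.66 ± 0.18, adjusted p = 0.0596), but did with the replicate pairs as a block (adjusted p = 0.01). In type B cells Mt1 stood at 942 CPM in control and 854 CPM in DN. Promoters of both are shown because the genes lie side by side and carry the core of metal response elements. The core (TGCACNC or TGCGCNC) occurred 3 times in the 300 bases around the start of Mt1 and 4 times in those of Mt2. Among all promoters 25.6% held at least 1 core, and 2.00% and 0.503% held as many as Mt1 and Mt2. Of the other genes looked up, Rgs2 held 2, Smim6 held 1, and Gpx3, Spp1 and Ptger3 had none in this window. The 150 bases before each start follow (RefSeq, GRCm38.p6, plus strand), Mt1 at chr8:94178939-94179088 and Mt2 at chr8:94172468-94172617, with the matches in capitals, 1 on the plus strand in Mt1 and 1 on each strand in Mt2.
Mt1: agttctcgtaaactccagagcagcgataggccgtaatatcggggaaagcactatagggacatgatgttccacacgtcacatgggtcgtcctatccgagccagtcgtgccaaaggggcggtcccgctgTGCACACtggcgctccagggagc
Mt2: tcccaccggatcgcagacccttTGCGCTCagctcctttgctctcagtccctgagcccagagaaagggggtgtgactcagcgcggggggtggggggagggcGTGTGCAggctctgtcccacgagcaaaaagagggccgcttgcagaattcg

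Fxyd2, the gamma subunit of the sodium pump, passed the test at 0.61 ± 0.15 (adjusted p = 0.0293), from 2049 ± 391 to 2990.1 ± 743 CPM, and was higher in DN in 8 of 8 pairs. It was called in 7 of 16 fits that left out 1 library, with adjusted p from 0.0108 to 0.0804. Esrrb, an orphan nuclear receptor, was at 2.21 ± 1.09 and 4.19 ± 1.02 CPM (1.13, adjusted p = 0.0112).

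Among genes lower in DN, Slc26a7 is the one that belongs to acid-base transport (ENSMUSG00000040569, chr4:14502430-14621805). Control libraries had 34.2 CPM at the lowest, 126 at the median and 172 at the highest, and DN libraries 14.03, 40.8 and 104. The ranges overlapped, and DN was lower in 8 of 8 pairs. The log2 fold change was -1.07 ± 0.27 (adjusted p = 0.0376, with the pairs as a block 1.76e-05). Its level was as high in the stricter cells, 122 CPM in control and 57.2 in DN (-1.06, adjusted p = 0.0596). It was at 0.656 and 0.554 CPM in type B cells and at 1.01 and 1.06 CPM in Aqp2-expressing cells. At 2000 UMIs per cell it was detected in 12.7% ± 5.08 of control and 7.08% ± 4.07 of DN type A cells, in 31.5% ± 10.7 and 21.6% ± 10.3 before thinning, and in 0.106% ± 0.226 and 0.107% ± 0.199 of thinned type B cells. Thinning left out 81 control and 28 DN type A cells. The call held in 6 of 16 fits without 1 library, where adjusted p ran from 0.00754 to 0.166, and not in the 12 libraries of the first barcode list (adjusted p = 0.181).

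Rgs2, a regulator of G protein signalling (ENSMUSG00000026360, chr1:143999338-144004161), had 75.8, 122 and 233 CPM in control and 49.5, 59.7 and 87.2 CPM in DN as lowest, median and highest values. DN was lower in 8 of 8 pairs, by 0.89 ± 0.11 on the log2 scale (a log2 fold change of -0.89, adjusted p = 0.000159). In the stricter cells the change was -1.27 (adjusted p = 1.01e-05). Smim6, a small membrane protein (ENSMUSG00000075420, chr11:115912017-115913920), had 152, 189.6 and 239.5 CPM in control and 46.1, 103 and 141 CPM in DN, without overlap (-0.85 ± 0.11, adjusted p = 0.000183), and -0.88 (adjusted p = 0.000385) in the stricter cells. Smim6 was lower in Aqp2-expressing cells too, at 149.9 and 84.2 CPM, where it was not tested.

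The calls on Gpx3, Spp1, Ptger3, Pigr, Napsa, Nrbp2, Fam19a1, Dapl1, Rgs2 and Smim6 held in 24 of 25 alternatives each. The exception was the cut at 20% mitochondrial UMIs, which keeps 1342 cells, with adjusted p of 0.24 to 1.

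**Figure D3:**
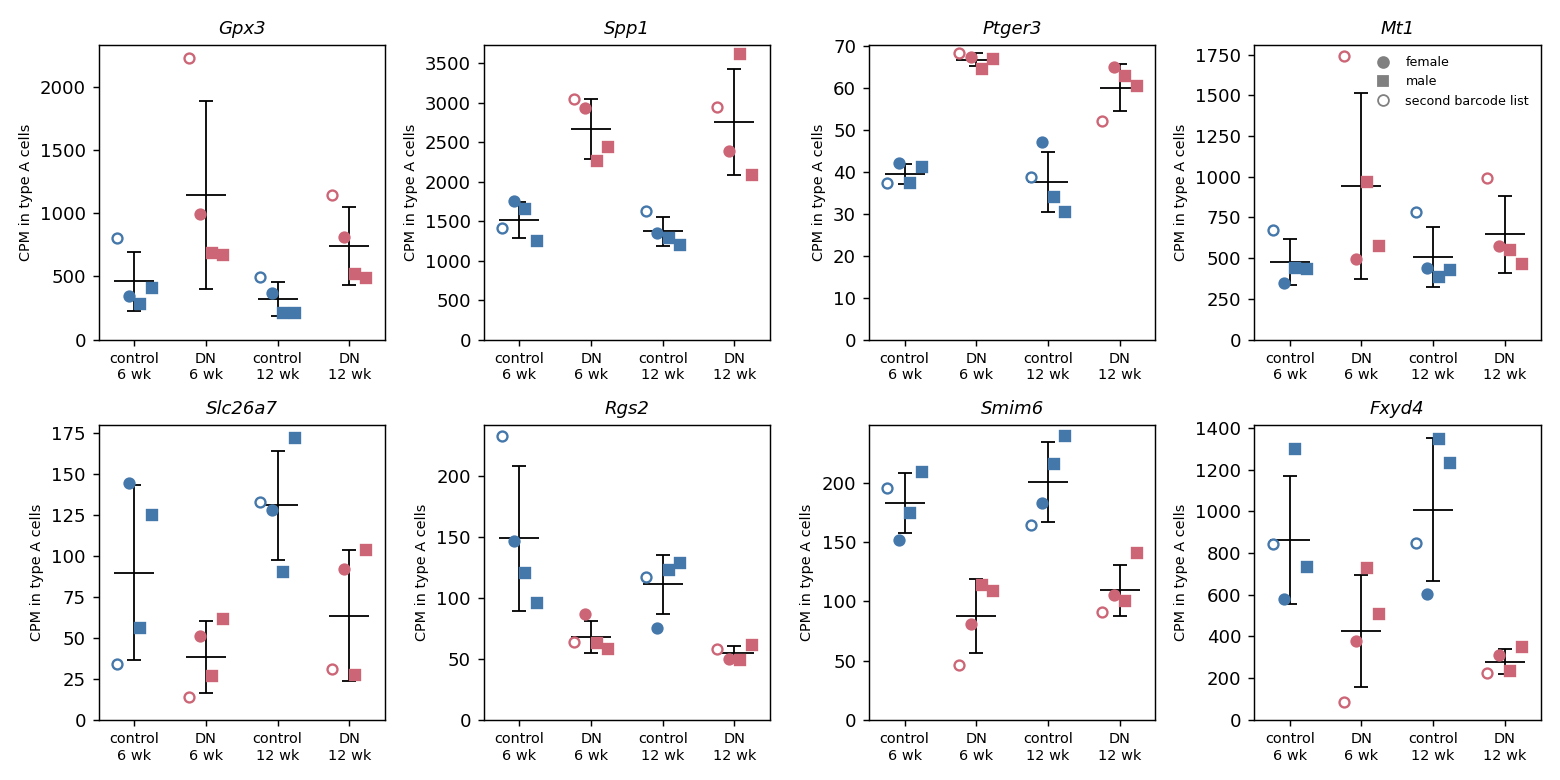
Levels of 8 transcripts in type A cells of each library, in CPM of summed cells. Points are libraries, circles females, squares males, open symbols the second barcode list, and lines the mean and SD of 4 libraries. Spp1, Ptger3 and Smim6 show no overlap between DN and control, while Slc26a7 and Mt1 overlap.

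Several of the lower genes that were named were transcripts with far higher levels in Aqp2-expressing cells. Npy, neuropeptide Y, had 44.5, 139 and 207 CPM as the lowest, median and highest control value and 0, 10.4 and 31.5 CPM in DN, without overlap (-3.10 ± 0.28, adjusted p = 1.1e-05). It stood at 553 CPM in control and 91.9 CPM in DN Aqp2-expressing cells, and at 13.4 and 1.48 CPM in the type A cells without Aqp2 and Slc26a4. Fxyd4, a sodium pump regulator of the collecting duct, fell from 935 ± 312 to 352 ± 196 CPM (-1.38 ± 0.22, adjusted p = 0.00198). In the stricter cells its level was 64.3 and 53.1 CPM (-0.17, adjusted p = 0.915), and in Aqp2-expressing cells 3957 and 2972 CPM. The Fxyd4 difference was thus small, and did not pass the test, in the cells without Aqp2.

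Further lower genes with a level in the stricter cells far below that in all type A cells were Hsd11b2, the enzyme that inactivates glucocorticoids (-0.77, adjusted p = 0.0265), Avpr2, the vasopressin V2 receptor (-0.79, adjusted p = 0.00319), Aqp4, a water channel (-1.04, adjusted p = 0.0064), Fstl1 (-1.95, adjusted p = 0.000183) and Notch2 (-0.87, adjusted p = 0.00174). Hsd11b2 was at 52.3 CPM in control and 27.0 in DN in the stricter cells and was called lower there too (-0.88, adjusted p = 0.0202). The call on Hsd11b2 held in 8 of 16 fits without 1 library (adjusted p up to 0.116). Aqp4 stood at 82.3 CPM in all control type A cells and at 1.75 CPM in the stricter ones. Of the genes called higher, Grem1, an antagonist of bone morphogenetic proteins, and Lcn2, the siderophore-binding protein NGAL, followed the same pattern. Grem1 had 0, 2.08 and 28.2 CPM in control and 0, 46.2 and 60.0 CPM in DN (3.48 ± 0.44, adjusted p = 0.000201), against 21.3 and 235 CPM in Aqp2-expressing cells and 0.0707 and 1.38 CPM in the stricter type A cells. Lcn2 had 18.2 ± 5.30 and 28.9 ± 15.3 CPM (0.80, adjusted p = 0.0044), 76.4 and 205 CPM in Aqp2-expressing cells, and 0.591 and 1.32 CPM in the stricter cells.

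The summed level of 9 principal cell markers in type A cells ran from 2347 to 4919 CPM in control and from 617 to 3410 CPM in DN, and no marker of the 9 was at 0. Of these markers 4 were called lower and 0 higher, with a median log2 fold change of -0.35 against -0.01 over all genes. Over all genes 1.41% were called lower. With the pairs as a block 6 of 9 markers were called lower, Aqp3 and Scnn1b being added, against 510 of 12405 over all genes. In the stricter cells, 1 of 7 markers that could be tested was called lower, Hsd11b2. Their sum there was 259 to 464 CPM and 200.2 to 374 CPM. At 2000 UMIs per cell Fxyd4 was detected in 31.2% ± 8.26 of control and 19.1% ± 5.21 of DN type A cells (exact permutation p = 0.00309). The share fell in type B cells as well, from 17.7% ± 7.91 to 11.2% ± 3.20 (exact permutation p = 0.0386), and in cells with Cubn or Lrp2 from 9.20% ± 3.31 to 5.39% ± 1.74 (exact permutation p = 0.0108), which should lack it. Aqp2 by the same measure was found in 28.4% ± 10.3 and 23.2% ± 7.12 of type A cells (exact permutation p = 0.272). What part of the principal cell transcripts comes from free RNA or doublets was not tested.

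**Figure D4:**
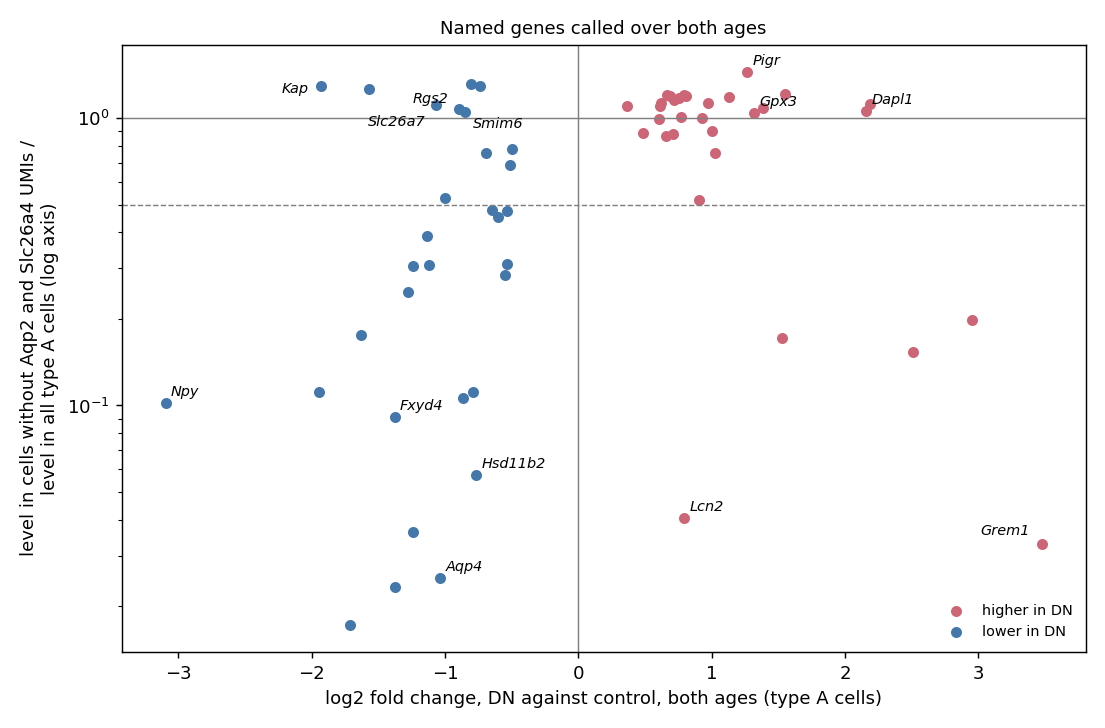
Named genes called in DN against control type A cells over both ages. The horizontal axis is the log2 fold change in all type A cells and the vertical axis, on a log scale, the mean level in cells without Aqp2 and Slc26a4 UMIs divided by that in all type A cells; the dashed line marks 0.5. Most named genes higher in DN lie near 1, while many lower ones, such as Npy, Fxyd4 and Aqp4, lie below 0.5 and Slc26a7, Rgs2 and Smim6 near 1.

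Transcripts of other kidney cells in the type A barcodes were followed by marker lists. Over all genes 1.23% were called higher and 1.41% lower, and with the pairs as a block 482 and 510 of 12405. Of 10 proximal tubule markers, 0 were called higher and 3 lower, namely Kap (-1.93, adjusted p = 0.000871), Miox (-0.80, adjusted p = 0.0395) and Acsm2 (-0.74, adjusted p = 0.0243), and Lrp2 also with the pairs as a block. The calls on Miox and Acsm2 held in 5 and 9 of 16 fits without 1 library. The summed level of the 10 markers was 110.2 to 976 CPM in control and 84.3 to 384 CPM in DN, with none at 0. Kap stood at 24016 CPM in control and 7713 CPM in DN proximal tubule cells. Of 4 type B markers, 1 was called lower, Insrr, the insulin receptor-related receptor (-0.54, adjusted p = 0.0371), in 8 of 16 fits without 1 library. Of 7 endothelial markers, 1 was called higher, Ehd3 (0.69, adjusted p = 0.00237), which was at 58.5 CPM in type B cells of control kidneys. The endothelial markers summed to 35.1 to 74.6 CPM in control and 49.1 to 142 CPM in DN. No marker of the loop and distal tubule (8 tested), mesangium and stroma (6), podocytes (6) or immune cells (3) was called, with 1, 2, 0 and 0 of them at an unadjusted p under 0.05 and 0 by DESeq2. Slc12a1, the loop cotransporter, was called lower with the pairs as a block (-0.52, adjusted p = 0.0121). Of the loop and distal tubule markers 7 could be tested in the stricter cells, with a median of -1.01 and 5 at an unadjusted p under 0.05, and Slc8a1, a sodium-calcium exchanger, was called lower (-1.07, adjusted p = 0.0136). Of 3 erythroid genes tested 0 were called by edgeR without the block or by DESeq2, with 1 under an unadjusted p of 0.05. With the pairs as a block Hba-a2 (2.92, adjusted p = 0.00189) and Hbb-bs (2.14, adjusted p = 0.0183) were called higher over both ages, and all 3 at 6 weeks (Hba-a2 6.28, adjusted p = 6.44e-05, and Hbb-bs 5.71, adjusted p = 3.23e-05). Hbb-bs was also called at 6 weeks in the stricter cells (6.12, adjusted p = 0.0218). Their sum was 231 CPM in DN male 6 weeks replicate 1 and 24.1 CPM in DN female 6 weeks replicate 1, against at most 11.3 CPM in the other 14 libraries.

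Genes of the acid-secreting machinery were followed as lists, beside 1.23% called higher and 1.41% called lower over all genes. A list of 23 genes is too small to show fewer calls than that. Of 23 V-ATPase genes tested, 0 passed the edgeR test in either direction, with 1 at an unadjusted p under 0.05 and 1 called by DESeq2, and their median log2 fold change was 0.08, with 18 of 23 positive. Of 22 that could be tested in the stricter cells 7 were positive, with a median of -0.03. The summed level of 25 V-ATPase genes was 13212 to 19450 CPM in control and 12401 to 19301 CPM in DN. With the pairs as a block 1 gene was called, Atp6v0d1 (-0.29, adjusted p = 0.0104), and at 12 weeks Atp6v1g3 was called higher (0.40, adjusted p = 0.0345). Over all genes and both ages the block called 482 of 12405 higher and 510 lower. Of 23 genes of acid-base and chloride transport, 1 was higher and 1 lower, Slc26a7 being the lower one, with a median of -0.02. The higher one, Car15, a membrane-bound carbonic anhydrase, ran from 40.4 to 119 CPM in the 4 libraries of the second barcode list and from 3.44 to 12.5 CPM in the other 12. Its call (0.65, adjusted p = 0.0275) held in 8 of 16 fits without 1 library, where adjusted p reached 0.0693, and not in the 12 libraries (adjusted p = 0.0525). Car12, a membrane-bound carbonic anhydrase (387 ± 93.7 and 284 ± 56.7 CPM), Rhcg, an ammonia channel (424 ± 60.7 and 345 ± 54.3 CPM), and Slc12a2, a sodium-potassium-chloride cotransporter (37.5 ± 15.1 and 43.7 ± 17.8 CPM), passed with the pairs as a block (adjusted p = 0.00504, 0.0307 and 0.00412) and not without it (0.139, 0.252 and 0.424).

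Among 21 regulators and receptors of intercalated cells, 2 were higher (Ptger3 and Esrrb) and 3 lower, with a median of -0.01. The lower ones were Notch2, Hes1, a Notch target, and Prlr, the prolactin receptor. Over all genes 1.23% were called higher and 1.41% lower, and with the pairs as a block 482 and 510 of 12405. Hes1 was at 214 ± 152 and 134 ± 67.3 CPM (-0.50, adjusted p = 0.0189), with 574 CPM in control female 12 weeks replicate 1 of the second barcode list, and 11 of 16 fits without 1 library called it. Prlr was at 7.04 ± 0.614 and 4.15 ± 1.56 CPM (-0.69, adjusted p = 0.0328), without overlap, and 7 of 16 such fits called it. Neither passed in the stricter cells (adjusted p = 0.513 and 0.412). The mineralocorticoid receptor gene Nr3c2 (-0.35) and the adaptor gene Clnk (-0.27) passed with the pairs as a block (adjusted p = 0.00415 and 0.0479) and not without it (0.127 and 0.234). Kit, one of the markers of the cells, stood at 366 ± 79.9 CPM in control and 277 ± 64.7 CPM in DN, lower in 7 of 8 pairs. It did not pass the test (-0.32 ± 0.14, adjusted p = 0.334) and passed with the pairs as a block (adjusted p = 0.02). At 2000 UMIs per cell, Kit was detected in 50.1% ± 6.85 of control and 40.8% ± 7.15 of DN type A cells.

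A list of antimicrobial, injury and inflammation genes, which also holds keratins, had 3 members higher and 1 lower of 14 tested, with a median of 0.18. Over all genes 1.23% were higher and 1.41% lower. The higher ones were Spp1, Lcn2 and the keratin gene Krt19 (1.53, adjusted p = 0.0205), and the lower one Lgals3, galectin 3 (-0.53, adjusted p = 0.00483). In the stricter cells 8 members of the list could be tested and 1 was called, Spp1. Lcn2 and Krt19 could not be tested there. Lgals3 had 138 and 131 CPM in the stricter cells and did not pass the test there (-0.02, adjusted p = 1). Of 20 genes of immediate early response and dissociation stress, 2 were higher (Ier3, 0.91, called in 8 of 16 fits without 1 library, and Cebpd) and 1 lower (Egr1, -1.24, adjusted p = 0.00319). With the pairs as a block 2 were higher and 4 lower, Junb (-0.49, adjusted p = 0.00522), Ier2 and Gadd45g (-0.42, adjusted p = 0.00689) being added to Egr1, and 14 of 20 had an unadjusted p under 0.05. Over all genes 2533 of 12405 had such a p with the block, and 482 were called higher and 510 lower. Of 18 tested in the stricter cells Cebpd was the 1 gene called, and Egr1 had a change of 0.16. Glycolysis (20 genes) and insulin, leptin and IGF signalling (14 genes) had 0 calls by edgeR without the block, 3 and 4 genes at an unadjusted p under 0.05 and 1 and 3 by DESeq2. Over all genes 1640 of 12405 had an unadjusted p under 0.05 without the block. With the pairs as a block 2 glycolysis and glucose handling genes were called lower, Slc2a1 and Txnip, and of the signalling genes 1 was called higher, Grb10 (0.30, adjusted p = 0.00728), and 3 lower, Irs1, Igf1r (-0.62, adjusted p = 2.87e-05) and Igfbp7 (-0.33, adjusted p = 0.016). None of these was called in the stricter cells, but that fit had no block. Without the block none was called in all type A cells either. The stricter cells therefore do not show whether the block calls hold there. Of 30 nuclear genes of oxidative phosphorylation 0 were called by either tool and 0 had an unadjusted p under 0.05. Of these 30, 28 had a positive change, with a median of 0.09, and in the stricter cells 16 of 30, with a median of 0.01. At 6 weeks 13 of the 30 were positive, with a median of -0.01, and at 12 weeks 30, with a median of 0.18. Of 13 mitochondrially encoded genes 1 was called higher, mt-Co3 (45667 ± 4327 and 55136 ± 8130 CPM, 0.36, adjusted p = 0.0464), 5 with the pairs as a block, and 0 of 13 in the stricter cells (6 at an unadjusted p under 0.05). The call on mt-Co3 held in 2 of 16 fits without 1 library (adjusted p from 0.0279 to 0.108).

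At 6 weeks, 16 genes (0.129%) were called between 4 DN and 4 control libraries per age, and at 12 weeks 142 genes (1.14%). The block raised these to 196 and 599. At 6 weeks the called genes included Dapl1 (2.53), Fetub, which encodes fetuin-B (1.77), Gpx3 (1.31 ± 0.17, adjusted p = 0.00381), Bag2, a co-chaperone (0.75), and Ptger3 (0.81) as higher, and Rgs2 (-0.89), Smim6 (-0.93) and Npy (-2.51) as lower. At 12 weeks the called genes included Grem1 (4.63), Pigr (1.42), Gpx3 (1.32 ± 0.16, adjusted p = 0.0006), Spp1 (1.13) and Ptger3 (0.81) as higher and Npy (-3.68), Spock3 (-3.15), Fstl1 (-2.81) and Emp1 (-1.43) as lower. Gpx3 in the stricter cells had changes of 1.10 and 1.38 at 6 and 12 weeks (adjusted p = 0.00352 and 0.000351), and Ptger3 changes of 0.81 and 0.22 (adjusted p = 0.0562 and 1). The ages shared 12 called genes, 75% of those at 6 weeks and 8.45% of those at 12 weeks. All 327 genes called over both ages had the same sign at each age. They were chosen by the mean of the 2 age effects, which favours a shared sign. The difference of the DN effect between 12 and 6 weeks had 0 calls by edgeR and by DESeq2, and 3 with the pairs as a block. Without the block 253 of 12405 genes had an unadjusted p under 0.05. The lowest p belonged to Spock3, a proteoglycan gene (-2.86, adjusted p = 0.202), followed by Ifit1, Oasl2, Irf7 and Xaf1, none of which passed.

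The DN effect in type A cells was then set against that in type B cells of the same libraries. A test of this difference called 488 of 12875 genes (3.79%). In this comparison the stricter cells are the stricter type A cells and those type B cells without UMIs of Aqp2 and Slc4a1. Mitochondrially encoded genes led. The DN effect was higher in type A cells by 0.32 ± 0.03 for mt-Co3 (adjusted p = 8.08e-08), by 0.34 ± 0.03 for mt-Co2, 0.31 for mt-Nd1, 0.30 for mt-Co1 and 0.29 for mt-Atp6. Of 13 such genes, 12 passed and 0 were lower, with a median of 0.27, and in the stricter cells 10 passed. Nuclear genes of oxidative phosphorylation had 8 of 30 higher and 0 lower, with a median of 0.12, and 0 of 30 in the stricter cells. The stricter cells had 81 calls over all genes. Under the cut at 20% mitochondrial UMIs there were 0 by edgeR, so no mitochondrially encoded gene was called there. Of 11119 genes tested under this cut, 580 had an unadjusted p under 0.05.

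For several genes the log2 fold change between DN and control was more positive in type A than in type B cells. The difference of the DN effects was 0.79 ± 0.09 for Mt1 (adjusted p = 3e-06), 0.90 ± 0.12 for Mt2 (6.18e-05), 0.64 ± 0.08 for Gpx3 (3.53e-05), 0.59 ± 0.07 for Ptger3 (4.52e-06), 0.59 ± 0.06 for Fxyd2 (1.77e-06) and 0.54 ± 0.07 for Spp1 (6.75e-05). For Rgs2 it was -0.79 ± 0.12 (adjusted p = 0.000199). In the stricter cells of both types each of these passed except Ptger3 (0.35, adjusted p = 0.189). Genes with the most negative tests were Pdzk1ip1 (-0.59), Anxa2, an annexin (-0.94), Hist1h1c, a linker histone (-0.79), Phlda1 (-0.55) and Guca2b, uroguanylin (-0.89). Of the pump and acid-base genes, Atp6v1a (0.21, adjusted p = 0.00274), Atp6v1e1 (0.19), Atp6v1g3 (0.13), Car2, the cytosolic carbonic anhydrase (0.26, adjusted p = 0.00817), and Car15 were higher and Slc4a4 was lower. None of Atp6v1a, Atp6v1e1, Atp6v1g3 and Car2 passed in the stricter cells (adjusted p = 0.178, 0.636, 0.945 and 0.229). Of 9 principal cell markers 5 were lower in this comparison and 0 higher, with a median of -0.48, and in the stricter cells 0 of 7 were called (2 at an unadjusted p under 0.05), with a median of 0.16. Of 20 stress genes 1 was higher, Cebpd, and 4 lower, Junb, Klf6, Gadd45b and Gadd45g, with 12 at an unadjusted p under 0.05 and a median of -0.32. With the pairs as a block 1 was higher and 7 lower, and over all genes 318 of 12875 were higher and 254 lower. In the stricter cells 19 could be tested, with Fos called higher, Gadd45b and Hspb1 lower and a median of -0.05. Of 6 podocyte markers all were positive, with a median of 1.85, and 1 was called, Podxl (2.90, adjusted p = 0.00446), which did not pass in the stricter cells (adjusted p = 0.24). The part of podocyte RNA and of the stress response in this comparison was not tested.

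**Figure D5:**
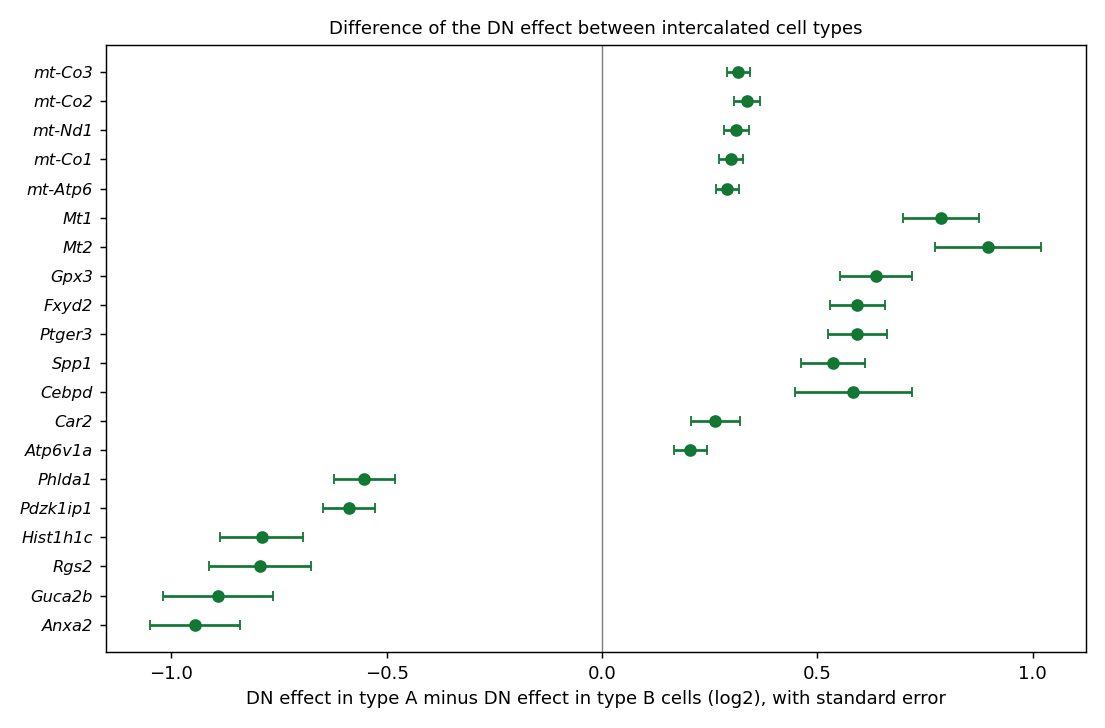
Difference of the DN effect between intercalated cell types for 20 genes. The horizontal axis is the log2 fold change of DN against control in type A cells minus that in type B cells, points are estimates and bars the standard error. The mitochondrially encoded genes lie between 0.29 and 0.34, Mt1 and Mt2 near 0.79 and 0.90, and Anxa2 at -0.94.

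Male and female type A cells differed in 40 genes (0.322%). The Y-linked genes Eif2s3y, Ddx3y, Uty and Kdm5d were higher in males and Xist and Tsix in females, as the labels state for each sex. Outside these, Ugt2b38, a glucuronosyltransferase gene, was higher in males (4.44 ± 0.38, adjusted p = 1.66e-06). Transcripts of the proximal tubule were higher in males beside it, namely Kap (4.23, adjusted p = 2.56e-06), Acsm2 (1.85, adjusted p = 6.78e-05), Slc34a1 (1.05, adjusted p = 0.00469) and Cyp2e1 (2.52, adjusted p = 0.0149), and their part in the sex result was not tested. Cldn14, a claudin (-1.59 ± 0.27, adjusted p = 0.00873), Kdm6a (-0.96) and Eif2s3x (-0.83) were lower. The test of whether the DN effect differed between the sexes had 0 calls by edgeR and by DESeq2. Of 12405 genes, 209 had an unadjusted p under 0.05.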

How the data were processed

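Kidney cells of 16 mice were profiled on 10x 3' kits of 2 versions, and which library had which is not given in the sources used here. The authors deposited 1 matrix of raw UMI counts per library, made with Cell Ranger 3.0.2 on mm10, with 31053 features in each. Counts as deposited were summed over the type A cells of a library in python 3.11.15 and tested in R 4.3.3 with edgeR 4.0.16 (limma 3.58.1), with TMM scaling, filterByExpr at a minimum count of 10, and terms for sex within age, barcode list and DN within age. Adjusted p under 0.05 is called. Cells are not replicates, so no test was run over cells, although the study tested single cells. Library totals were 10510855 to 125551519 UMIs. Shallow libraries measure low transcripts less well, and intervals or shares cover counting error only.

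The members and gene lists were chosen with earlier results of these data known. Named genes are the 10 lowest adjusted p in each direction of each DN comparison (5 where few or none are called, and for the tests of differences), called members of the lists, and the pump, acid-base and regulator genes. Genes the selection rule uses are not given as findings. Libraries of a sex and age were paired here by the replicate number in their labels. Neither the labels nor the paper say that same-numbered libraries were handled together, so the pairing is an assumption. The deviations of same-numbered libraries from their group means correlated at 0.353, 0.431, 0.353 and 0.176, all over 0.1, so fits with the pair as a block are given where calls change. The first 2 values are of the female groups, where the replicate number goes with the barcode list. They therefore cannot tell a pair from a barcode list. With 2 libraries per group, each sex and age gives 1 value, and swapping the replicate numbers of 1 group only turns its sign. The male values of 0.353 and 0.176 are thus too few to decide whether the pairing is real. Single values per library were compared by exact two-sided permutation within sex and age (1296 arrangements, smallest p 0.00154). Alternatives were RLE scaling, no filter, DESeq2 1.42.0, the block, no list term, 12 libraries, stricter cells, other UMI minima and mitochondrial cuts, and leaving out each library. On simulated counts over 12136 genes for the comparison over both ages, 87.5% of genes changed by 1 on the log2 scale and 98.9% of those changed by 2 were recovered, with 11 false calls. The simulated counts held no effect of barcode list, sex, age or pair, and changed genes lost to the filter were not counted. Recovery in the data may therefore be lower. Gene coordinates are from the GRCm38 annotation, GENCODE M21.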

Additional observations from a re-analysis of the deposited data

Results flagged for a closer look

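Among 188 sets of 4 libraries of one genotype and age, 13 had a library that stood apart from the other 3, where chance gives about 1 in 20, and 12 of the 13 were libraries of the second barcode list. The type A share was 2.41% in DN female 6 weeks replicate 1 and 5.35% to 5.79% in the others of its genotype and age.

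Car15 stood apart in all 4 libraries of that list, at 40.4 CPM in control female 6 weeks replicate 1 (others 3.44 to 7.12), 91.8 CPM in control female 12 weeks replicate 1 (4.18 to 5.80), 50.1 CPM in DN female 6 weeks replicate 1 (6.52 to 8.35) and 119 CPM in DN female 12 weeks replicate 1 (6.60 to 12.5). Hes1 did in 2 of them, at 574 CPM in control female 12 weeks replicate 1 (133 to 145) and 283 CPM in DN female 12 weeks replicate 1 (75.7 to 107). In control female 12 weeks replicate 1, Snhg18 was at 80.4 CPM (22.04 to 31.9) and D630023F18Rik at 2.15 CPM (1.21 to 1.36). In control female 6 weeks replicate 1, Cyp4v3 was at 31.1 CPM (14.3 to 15.8) and Cpvl at 3.11 CPM (13.3 to 15.2). Fam19a1 was at 18.0 CPM in DN female 6 weeks replicate 1 (5.28 to 7.45). The one library of the first list was control female 12 weeks replicate 2, with Npy at 46.3 CPM (179 to 205).

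The DN effect differed between type A and type B cells in 488 genes by a test of the difference itself. The genes with the lowest p were mt-Co3 (0.32), mt-Nd1 (0.31), mt-Co2 (0.34), mt-Atp6 (0.29) and mt-Co1 (0.30) as higher in type A, and Pdzk1ip1 (-0.59), Anxa2 (-0.94), Hist1h1c (-0.79), Phlda1 (-0.55) and Guca2b (-0.89) as lower, all on the log2 scale.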

How the results depend on the processing

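Counts of called genes are given in the order both ages, 6 weeks, 12 weeks, type A minus type B, sex, and age and sex differences of the DN effect, which were 327, 16, 142, 488, 40, 0 and 0 as reported. Without a filter on low counts they were 776, 243, 499, 771, 311, 63 and 44. DESeq2 called 47 at 6 weeks, 215 at 12 weeks, 61 by sex and 284 for type A minus type B. Without a barcode list term there were 171, 0 (542 of 12082 at an unadjusted p under 0.05) and 65 over both ages, at 6 and at 12 weeks. In the stricter type A cells there were 93 over both ages and 17 at 12 weeks, and 81 for type A minus type B in the stricter cells of both types. At most 20% mitochondrial UMIs left 23, 2, 18, 0 and 14. The 12 libraries gave 6 and 90 at 6 and 12 weeks.

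With the replicate block, pairing libraries of one number, the counts were 992, 196, 599 and 3 for both ages, 6 weeks, 12 weeks and the age difference. Calls that genes of the lists gained with it over both ages are given above, and no call of the 327 was lost.

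Leaving out 1 library gave 175 (without control female 6 weeks replicate 2) to 340 over both ages, 4 (the same library) to 33 (control male 12 weeks replicate 1) at 6 weeks, 53 (DN male 12 weeks replicate 1) to 179 at 12 weeks, 262 (control male 6 weeks replicate 2) to 553 for type A minus type B, 15 (control female 6 weeks replicate 2) to 61 by sex, and 0 to 3 and 0 to 1 for the age and sex differences. The type A share moved from -0.564 to 0.260 points, the part among intercalated cells from 4.03 to 6.54, and the mitochondrial differences from 3.51 to 4.93 and, against type B, from 3.68 to 4.43. In 5 of these fits the share turned positive (0.121, 0.0334, 0.260, 0.237 and 0.0213). The part of type A among intercalated cells was -2.78 thinned and -12.5 at 20% mitochondrial UMIs, and the share -1.42 there.

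Of 2408 values of named genes under alternatives, 2015 kept direction and call, 377 lost the call, 11 gained it and 5 turned sign. These were Aqp4 (0.0727), Ptger3 at 6 weeks (-0.40) and mt-Nd1 for type A minus type B (-0.0779) at 20% mitochondrial UMIs, and Egr1 over both ages (0.16) and Lgals3 at 12 weeks (0.0396) in the stricter cells. The pooled counts include the fits that left out 1 library, and the settings differed. At 20% mitochondrial UMIs 15 values kept direction and call, 77 lost the call and 3 turned sign. In the stricter cells 34 kept both, 45 lost the call, 1 gained it and 2 turned sign. Without a barcode list term 61 kept both and 36 lost the call, and in the 12 libraries 74 and 23. The causes were not tested. Depth limits transcripts under a few CPM in the 4 libraries of the second barcode list, whose type A cells hold 321701 to 1881790 UMIs.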

Other observations

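Ifit1, Irf7, Oasl2 and Xaf1 are given here as values, since they had low p-values in the age difference. They were picked after their values were known, no list of related genes was tallied, and their levels are given as a description. In type A cells at 12 weeks Ifit1, which encodes an RNA-binding antiviral protein, stood at 2.07 to 21.2 CPM in the 4 control libraries and at 0.143 to 1.06 CPM in the 4 DN libraries, and Irf7, a transcription factor, at 2.87 to 8.46 and 0.550 to 1.59 CPM. Oasl2 ran from 1.44 to 5.01 CPM in control and from 0.143 to 0.549 CPM in DN, and Xaf1 from 3.98 to 10.03 and from 0.855 to 2.66 CPM. The fitted log2 fold changes of Ifit1, Irf7, Oasl2 and Xaf1 were -3.66, -2.50, -3.03 and -2.29 at 12 weeks and 1.67, 0.89, 1.06 and 0.45 at 6 weeks. The difference between the ages did not pass for any of them (adjusted p of 0.357 or more, edgeR's quasi-likelihood test). This does not say whether the change at 12 weeks alone passed. The counts are low, with 271 UMIs of Ifit1 in all control and 77 in all DN type A cells, and control female 12 weeks replicate 2 holds the highest Ifit1 value. Too few UMIs of the 4 genes were in the cells without Aqp2 and Slc26a4 for a test there.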
